A study of Mus musculus with 12 samples.

Results

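Marrow and host genotype were crossed in 12 azoxymethane-induced colon tumours of bone marrow chimeras, and the comparison described here set tumours whose marrow and host had the same St2 genotype against tumours in which they differed. Members were chosen by their group labels, and all 12 of the 12 libraries in the study entered, 6 matched and 6 mismatched. The matched groups were St2-/- => St2-/- (St2-/- marrow in St2-/- hosts) and WT => WT (wild-type marrow in wild-type hosts). The mismatched groups were St2-/- => WT (St2-/- marrow in wild-type hosts) and WT => St2-/- (wild-type marrow in St2-/- hosts). Each group held 3 tumours, labelled as biological replicates. All mice were on the Balb/c background. Hosts received 2 radiation doses of 5 Gy, were given 8 weeks to reconstitute, and then had 6 weekly injections of azoxymethane (AOM, 10 mg/kg), a carcinogen that causes tumours of the colon. The tumours were collected 13 or 14 weeks after the injections ended, and 11 mice were male and 1, WT => St2-/- replicate 3, was female. The labels give a genotype for donors and hosts but no measure of how far donor cells had replaced host leukocytes.

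ST2, encoded by Il1rl1, is the receptor for the alarmin IL-33, which is released by damaged epithelial and stromal cells. In the gut, ST2 is carried by mast cells, type 2 innate lymphoid cells and some regulatory T cells, all derived from marrow, and also by stromal and epithelial cells of the host. A transplant with unlike genotypes leaves the receptor on one side of this pair and removes it from the other, and the interaction of marrow and host genotype asks whether the effect of the marrow depends on the host it enters.

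Gene counts per library lay between 10638001 and 12962496 in matched chimeras and between 10293818 and 12735295 in mismatched chimeras. Il1rl1, the targeted gene, was measured at 13.4, 7.91 and 10.7 CPM (counts scaled to library size after TMM normalization) in St2-/- => St2-/- tumours, 53.5, 132 and 275 CPM in WT => WT tumours, 125, 36.5 and 193 CPM in St2-/- => WT tumours, and 11.9, 25.0 and 7.30 CPM in WT => St2-/- tumours. Every tumour of an St2-/- host was below every tumour of a wild-type host, and the host term was called (log2 -3.42, SE 0.52, adjusted p = 0.00984). Reads of the gene remained in St2-/- => St2-/- tumours, and the labels do not say which part of the gene was removed. Il1rl1 did not separate matched from mismatched chimeras (log2 -0.04, SE 0.48, adjusted p = 0.989), and Il33, its ligand, did not either (log2 -0.09, SE 0.47, adjusted p = 0.975).

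No gene was called between matched and mismatched chimeras. The value given for each gene is log2 of matched over mismatched, the mean of both matched groups minus the mean of both mismatched groups, so that neither main effect enters. It is 0.5 times the interaction coefficient and has the same p. Of 15060 genes tested with edgeR's quasi-likelihood test, 0 (0%) had a Benjamini-Hochberg adjusted p under 0.05, and the lowest was 0.119, for Gsdmc2. An unadjusted p under 0.05 was reached by 1144 genes (7.60%), of which 463 (3.07%) were higher and 681 (4.52%) lower in matched chimeras. With the same libraries, 0 genes (0%) were called for the marrow term and 206 (1.37%) for the host term. The number series in the sample labels differ between wild-type and St2-/- hosts. Host genotype and anything those series share cannot be told apart. Other tools called genes for the interaction: the DESeq2 Wald test gave 93 calls (18 higher and 75 lower in matched chimeras), and limma-voom with quality weights gave 4, all lower in matched chimeras. The p-values measure the spread between the 3 tumours of a group.

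The lowest p-values belonged to genes of the gasdermin C cluster, which were lower in matched chimeras in both hosts. Gasdermins are pore-forming proteins, and in mouse intestine the gasdermin C genes are expressed in epithelium and are induced by type 2 cytokines. Gsdmc2 (chr15:63824346-63845177), Gsdmc3 (chr15:63857724-63878558) and Gsdmc4 (chr15:63891264-63912297) lie side by side on the minus strand in GENCODE M21 on GRCm38. Their coding sequences are near copies, 97.1% identical between Gsdmc2 and Gsdmc3, 93.7% between Gsdmc2 and Gsdmc4, and 93.8% between Gsdmc3 and Gsdmc4. The first 150 coding bases are printed because they show why reads of 50 bases can fail to tell the copies apart. Capitals mark the 2 positions at which the 3 genes are not all alike.
Gsdmc2: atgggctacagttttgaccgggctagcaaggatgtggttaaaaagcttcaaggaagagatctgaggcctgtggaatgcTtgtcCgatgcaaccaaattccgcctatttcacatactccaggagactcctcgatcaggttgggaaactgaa
Gsdmc3: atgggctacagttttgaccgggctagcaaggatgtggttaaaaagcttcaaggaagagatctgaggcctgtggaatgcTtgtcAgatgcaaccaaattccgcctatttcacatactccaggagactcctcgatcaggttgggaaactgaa
Gsdmc4: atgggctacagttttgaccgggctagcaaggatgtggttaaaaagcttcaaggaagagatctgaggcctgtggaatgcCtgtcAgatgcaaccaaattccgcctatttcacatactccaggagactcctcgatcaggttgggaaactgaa
Of all 50-base windows of the transcripts, 48.7% in Gsdmc2, 54.0% in Gsdmc3 and 61.0% in Gsdmc4 occur in no other gene. Only such windows can give uniquely placed reads, and reads that were not unique were left out of the gene counts. The level of each copy thus rests on part of its transcript, so how the copies compare with each other is uncertain.

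Gsdmc2 was measured at 94.5, 112 and 65.4 CPM in St2-/- => St2-/- tumours and 102, 33.7 and 79.3 CPM in WT => WT tumours, against 226, 239 and 131 CPM in St2-/- => WT tumours and 546, 862 and 742 CPM in WT => St2-/- tumours. All 6 matched tumours were below all 6 mismatched tumours, and WT => St2-/- tumours were the highest. The log2 of matched over mismatched was -2.23 (SE 0.28, adjusted p = 0.119), not called. St2-/- marrow went with more Gsdmc2 in wild-type hosts (log2 1.47, SE 0.39) and with less in St2-/- hosts (log2 -2.98, SE 0.41), and neither effect alone was called. Gsdmc3 also had no overlap, with 24.9, 28.8 and 11.7 CPM in St2-/- => St2-/- tumours and 29.8, 4.06 and 17.4 CPM in WT => WT tumours, against 70.3, 78.4 and 34.2 CPM in St2-/- => WT tumours and 113, 233 and 245 CPM in WT => St2-/- tumours (log2 -2.50, SE 0.44, adjusted p = 0.539). Gsdmc4 had 20.8, 20.0 and 9.51 CPM in St2-/- => St2-/- tumours and 39.3, 5.80 and 16.5 CPM in WT => WT tumours, against 53.7, 58.5 and 26.0 CPM in St2-/- => WT tumours and 128, 137 and 158 CPM in WT => St2-/- tumours (log2 -2.12, SE 0.40, adjusted p = 0.539). It overlapped in 1 pair, since WT => WT replicate 1 was above St2-/- => WT replicate 3.

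A neighbouring transcribed pseudogene of the cluster, Gsdmcl-ps, had the lowest p after Gsdmc2 (log2 -2.17, SE 0.34, adjusted p = 0.377). Its host term was called (log2 1.62, SE 0.33, adjusted p = 0.0416). These 4 genes were the 4 called by limma-voom, with adjusted p-values of 0.00471 for Gsdmc2, 0.0106 for Gsdmc4, 0.0107 for Gsdmc3 and 0.0339 for Gsdmcl-ps. The cluster kept its direction at both sampling times. At 13 weeks the contrast of group means for Gsdmc2 was -2.80 (log2 CPM), and at 14 weeks it was -1.57. The 14-week means of WT => WT, St2-/- => WT and WT => St2-/- each came from a single tumour. So did the 13-week mean of St2-/- => St2-/-. At 14 weeks the 3 matched tumours had 79.3 to 112 CPM of Gsdmc2 and the 2 mismatched tumours had 131 and 546 CPM. Markers of the epithelium that carries these genes were on the same side by smaller amounts. The list of absorptive colonocytes had a median log2 of -0.43, with 19 of 20 tested members lower in matched chimeras and 3 at an unadjusted p under 0.05. Its summed level was 2653 to 9366 CPM in matched chimeras and 2024 to 10404 CPM in mismatched chimeras. Epcam and Cdh1, general epithelial genes, had values of -0.05 (SE 0.18) and -0.15 (SE 0.20). The part of colonocyte content in the gasdermin values was not tested. The wider list of gasdermins and inflammasome genes had a median of -0.12 over 16 tested members, with 3 lower and 1 higher at an unadjusted p under 0.05, against a median of -0.005 over all tested genes.

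**Figure D1:**
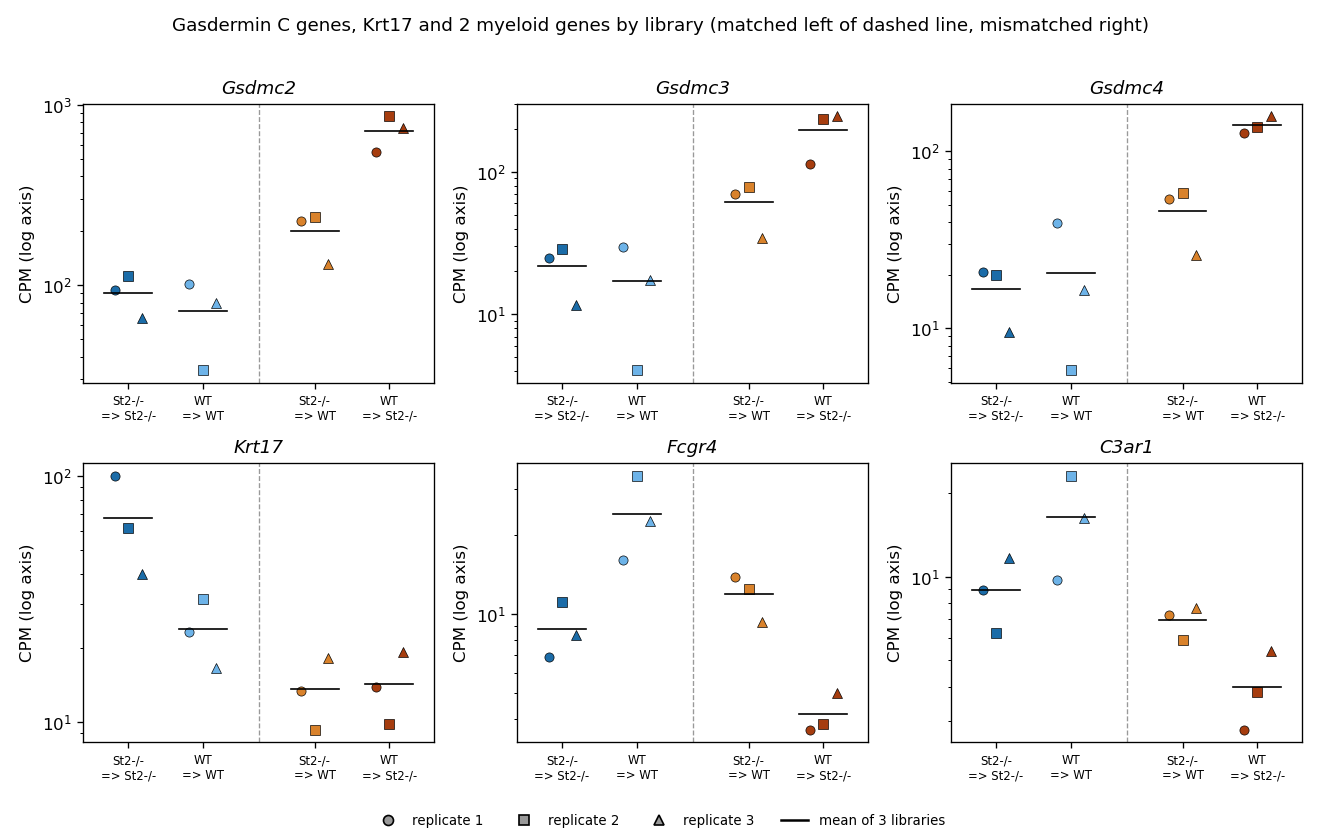
CPM on a log axis in each library for Gsdmc2, Gsdmc3, Gsdmc4, Krt17, Fcgr4 and C3ar1, with matched groups left and mismatched groups right of the dashed line; points are single tumours and bars are means of 3. All 6 matched tumours lie below all 6 mismatched tumours for Gsdmc2 (33.7 to 112 against 131 to 862 CPM), while Krt17 is highest in St2-/- => St2-/- tumours.

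Krt17, a keratin of injured and stressed epithelium, had the lowest p among named genes that were higher in matched chimeras. It was measured at 100, 61.7 and 39.9 CPM in St2-/- => St2-/- tumours and 23.2, 31.5 and 16.5 CPM in WT => WT tumours, against 13.3, 9.26 and 18.1 CPM in St2-/- => WT tumours and 13.8, 9.74 and 19.2 CPM in WT => St2-/- tumours. The St2-/- => St2-/- tumours stood above all others, and WT => WT replicate 3 overlapped the mismatched tumours. The log2 of matched over mismatched was 1.52 (SE 0.28, adjusted p = 0.539), not called, with a marrow effect of 2.24 (SE 0.40) in St2-/- hosts and -0.81 (SE 0.39) in wild-type hosts. Retnlb, a resistin-like protein of goblet cells that type 2 cytokines induce, showed the reverse order in St2-/- hosts and was singled out after its values were seen. It had 10.3, 6.57 and 3.32 CPM in St2-/- => St2-/- tumours and 50.1, 8.79 and 42.7 CPM in WT => WT tumours, against 41.3, 48.5 and 35.6 CPM in St2-/- => WT tumours and 50.6, 52.2 and 26.3 CPM in WT => St2-/- tumours (log2 -1.49, SE 0.40, adjusted p = 0.539). WT => WT tumours overlapped both mismatched groups. Clca1, looked up together with Retnlb, had a value of -0.53 (SE 0.42), and the type 2 cytokine genes Il4, Il5 and Il13 were below the filter. The list of type 2 innate lymphoid cells and regulatory T cells had a median of -0.19, with 9 of 13 tested members lower in matched chimeras.

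Genes of macrophages and monocytes were mostly higher in matched chimeras. Of 24 tested members, 20 were higher and 4 lower in matched chimeras, 11 were higher and 1 (Cd163, a scavenger receptor of resident macrophages, log2 -1.26) lower at an unadjusted p under 0.05, and the median was 0.64 (0.42 without WT => WT replicate 2). Fcgr4, an Fc receptor for IgG, had 6.88, 11.2 and 8.35 CPM in St2-/- => St2-/- tumours and 16.1, 33.7 and 22.7 CPM in WT => WT tumours, against 13.9, 12.5 and 9.37 CPM in St2-/- => WT tumours and 3.64, 3.83 and 5.01 CPM in WT => St2-/- tumours (log2 1.05, SE 0.22, adjusted p = 0.539). Within each host the matched group was higher without overlap, but the pooled groups overlapped because Fcgr4 was also lower in St2-/- hosts (host log2 -1.49, adjusted p = 0.00875, called). C3ar1, the receptor for complement C3a, had 8.94, 6.25 and 11.7 CPM in St2-/- => St2-/- tumours and 9.70, 23.2 and 16.2 CPM in WT => WT tumours, against 7.24, 5.91 and 7.72 CPM in St2-/- => WT tumours and 2.79, 3.83 and 5.36 CPM in WT => St2-/- tumours (log2 1.20, SE 0.26, adjusted p = 0.539). Again each host separated its groups and the pooled groups overlapped. The complement C1q genes C1qa and C1qb, made by resident macrophages, had values of 0.85 (SE 0.27) and 0.90 (SE 0.29), and Ms4a7, a membrane protein of macrophages, had 1.00 (SE 0.32).

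WT => WT replicate 2 stood above the other matched tumours in several of these genes, with 285 CPM of C1qa against 98.9 to 138 CPM in the other 5. Leaving out each library in turn, the value of C1qa lay between 0.57 and 1.02 and that of Fcgr4 between 0.89 and 1.17. The list's score, its mean log2 CPM, was 4.37, 4.01 and 4.39 in St2-/- => St2-/- tumours and 4.15, 5.23 and 4.78 in WT => WT tumours, against 4.48, 4.33 and 4.06 in St2-/- => WT tumours and 3.05, 3.53 and 4.29 in WT => St2-/- tumours. The lowest scores were in WT => St2-/- replicates 1 and 2. The summed level was 1400 to 3396 CPM in matched chimeras and 724 to 1954 CPM in mismatched chimeras. In bulk tumours, fewer cells of a type and less RNA per cell cannot be told apart. Ptprc, the common leukocyte antigen CD45, had a value of 0.12 (SE 0.45).

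All 15 tested neutrophil genes were higher in matched chimeras, with a median of 1.06, and 7 had an unadjusted p under 0.05. Clec4e, a C-type lectin receptor of myeloid cells, had 3.82, 4.59 and 2.16 CPM in St2-/- => St2-/- tumours and 2.49, 4.15 and 6.29 CPM in WT => WT tumours, against 6.03, 2.23 and 2.43 CPM in St2-/- => WT tumours and 1.35, 0.52 and 0.97 CPM in WT => St2-/- tumours (log2 1.08, SE 0.38, adjusted p = 0.559). The WT => St2-/- tumours were the lowest, while St2-/- => WT tumours overlapped both matched groups. Clec4d, a related lectin, had a value of 1.17 (SE 0.49), Fpr1, a receptor for bacterial formyl peptides, 1.40 (SE 0.57), and Il1r2, the decoy receptor for IL-1, 0.69 (SE 0.25). For all 4 genes the marrow effect was larger in St2-/- hosts, 0.99 to 2.00, than in wild-type hosts, -0.80 to -0.28. The granule genes Mmp8, Ngp and Camp were below the filter. The score ranged from 2.15 to 3.80 in matched chimeras and from 0.34 to 3.53 in mismatched chimeras, and the summed level of the list from 175 to 614 CPM and from 96.7 to 475 CPM in the same groups. The lowest score was that of WT => St2-/- replicate 2.

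Genes of smooth muscle, enteric neurons and enteric glia were lower in matched chimeras by the largest amounts, and the values followed 4 mismatched libraries. These cells form the muscle coat of the colon and the nerve plexuses within it. All 25 tested smooth muscle genes were lower in matched chimeras, with a median log2 of -1.35 and 18 at an unadjusted p under 0.05. Actg2, the enteric smooth muscle actin, had 41.0, 15.2 and 34.8 CPM in St2-/- => St2-/- tumours and 19.8, 27.0 and 39.5 CPM in WT => WT tumours, against 412, 188 and 59.2 CPM in St2-/- => WT tumours and 37.0, 443 and 206 CPM in WT => St2-/- tumours (log2 -2.92, SE 0.61, adjusted p = 0.539). WT => St2-/- replicate 1 lay within the matched range. Cnn1, calponin, had a value of -3.34 (SE 0.75), Des, desmin, of -3.26 (SE 0.81), and Myh11, smooth muscle myosin, of -2.76 (SE 0.66), each with adjusted p = 0.539.

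The smooth muscle score was 4.73, 3.80 and 4.53 in St2-/- => St2-/- tumours and 3.50, 4.29 and 4.53 in WT => WT tumours, against 6.37, 5.67 and 4.56 in St2-/- => WT tumours and 4.18, 6.74 and 5.81 in WT => St2-/- tumours. St2-/- => WT replicates 1 and 2 and WT => St2-/- replicates 2 and 3 had the 4 highest scores, and the other 2 mismatched tumours lay within the matched range. These 4 libraries are also all of the mismatched tumours taken at 13 weeks. At 13 weeks the score of the 3 matched tumours was 3.50 to 4.53 and that of the 4 mismatched tumours 5.67 to 6.74. At 14 weeks it was 3.80 to 4.73 in 3 matched tumours and 4.18 to 4.56 in 2 mismatched tumours, with a contrast of 0.02. The difference in muscle genes did not hold within the 14-week tumours, and sampling time and muscle RNA cannot be told apart within the mismatched chimeras. The summed level of the list was 1272 to 2318 CPM in matched chimeras and 1730 to 7143 CPM in mismatched chimeras.

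Of 21 tested genes of enteric neurons, 21 were lower in matched chimeras, with a median of -2.33 and 16 at an unadjusted p under 0.05. Calb2, calretinin, had 0.23, 0 and 0.15 CPM in St2-/- => St2-/- tumours and 0, 0 and 0.56 CPM in WT => WT tumours, against 4.91, 4.03 and 0.61 CPM in St2-/- => WT tumours and 0.51, 14.9 and 2.64 CPM in WT => St2-/- tumours. It was near the limit of detection in all matched tumours. Tubb3, a neuronal tubulin, had a value of -2.90 (SE 0.76), Stmn2, a stathmin of growing neurites, of -2.03 (SE 0.53), and Prph, peripherin, of -3.23 (SE 0.90). Of 11 tested genes of enteric glia, 10 were lower and 6 had an unadjusted p under 0.05, with a median of -1.45. Sox10, the transcription factor of the neural crest lineage, was at or below 0.15 CPM in every matched tumour and between 0.09 and 2.35 CPM in mismatched tumours. Gfap, at 0 to 0.61 CPM in matched and 0.34 to 6.87 CPM in mismatched tumours, had a value of -3.52 (SE 0.87). Scn7a, a sodium channel of glia, had a value of -2.50 (SE 0.65). At 14 weeks the contrasts of the scores were -0.07 for neurons and -0.03 for glia, against -2.81 and -1.66 at 13 weeks. Summed levels were 43.0 to 118 CPM in matched and 80.9 to 410 CPM in mismatched chimeras for neurons, and 45.6 to 144 CPM and 99.2 to 136 CPM in the same order for glia.

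**Figure D2:**
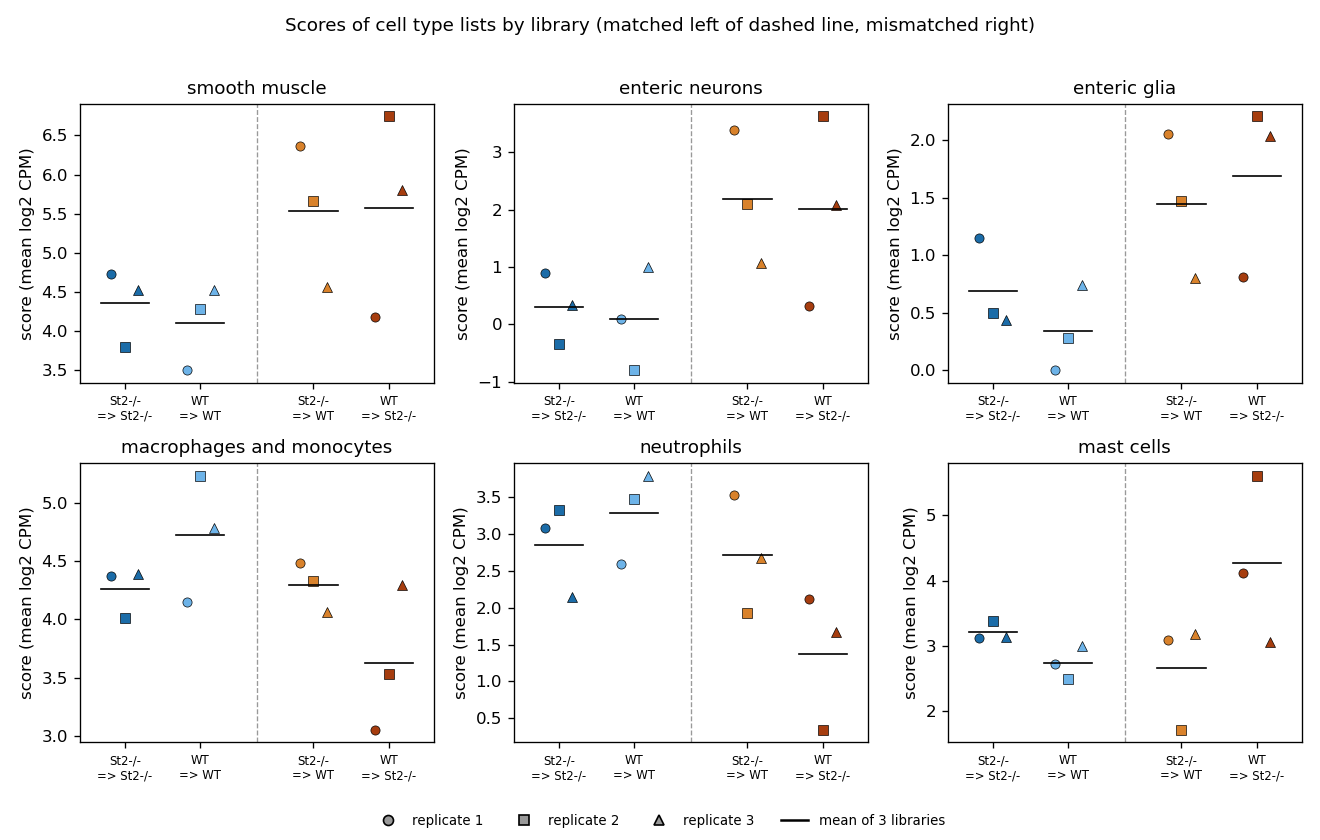
Mean log2 CPM of 6 cell type lists in each library, with matched groups left and mismatched groups right of the dashed line; points are single tumours and bars are means of 3. Smooth muscle scores reach 4.73 in matched tumours, and 4 mismatched tumours lie above that, from 5.67 to 6.74.

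Without those 4 libraries, an alternative chosen after the values were seen that leaves 1 tumour in each mismatched group, the medians were -0.06 for smooth muscle, -0.14 for enteric neurons and -0.11 for enteric glia. With the smooth muscle score as a covariate they were -0.08, -0.12 and -0.37. Both settings were defined by the smooth muscle genes themselves, and the 4 libraries are all mismatched. A smaller median for that list therefore follows from the choice and tests nothing. The gasdermin genes had values of -1.73 for Gsdmc2, -1.69 for Gsdmc3 and -1.63 for Gsdmc4 without the 4 libraries. With the covariate they were at -2.00, -2.17 and -2.15. The same 4 libraries were the 4 highest of 12 for 16 of 25 smooth muscle genes. That count is circular, since the mean of these 25 genes picked the libraries. They were the 4 highest for 18 of 32 neuron and glia genes, for 0 of the 3 gasdermin C genes and for 329 of all 15060 genes (2.18%). The macrophage median was 1.30 without the 4 libraries and 1.23 with the covariate, and the neutrophil median 0.96 and 0.91.

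Actc1, an alpha-actin best known from heart muscle, had 2.37, 1.74 and 2.32 CPM in St2-/- => St2-/- tumours and 2.40, 1.06 and 1.59 CPM in WT => WT tumours, against 10.9, 8.32 and 3.73 CPM in St2-/- => WT tumours and 2.54, 13.2 and 4.83 CPM in WT => St2-/- tumours (log2 -1.92, SE 0.43, adjusted p = 0.539). Matched and mismatched tumours did not overlap. The CArG box, the element bound by serum response factor in many muscle genes, was searched on both strands of RefSeq promoter windows on GRCm38.p6, from 250 bases before to 50 bases after the start. A gene was counted when any of its windows held the box. This was so for 488 of 27025 genes (1.81%) and for 1 of 20 genes of the smooth muscle list (5%), the myosin light chain gene Myl9. Actc1 also had a match. Both windows are printed, with the box in capitals, because these were the matches among the named genes and the smooth muscle list that were searched. A match describes the letters and is not evidence of binding.
Actc1, chr2:114052826-114053125, minus strand: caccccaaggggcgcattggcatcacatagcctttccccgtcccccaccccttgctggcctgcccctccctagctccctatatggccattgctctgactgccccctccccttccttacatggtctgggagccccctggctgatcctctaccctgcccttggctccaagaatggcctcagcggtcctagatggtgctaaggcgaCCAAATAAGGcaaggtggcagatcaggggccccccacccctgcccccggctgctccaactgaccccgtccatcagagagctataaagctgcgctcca
Myl9, chr2:156775214-156775513, plus strand: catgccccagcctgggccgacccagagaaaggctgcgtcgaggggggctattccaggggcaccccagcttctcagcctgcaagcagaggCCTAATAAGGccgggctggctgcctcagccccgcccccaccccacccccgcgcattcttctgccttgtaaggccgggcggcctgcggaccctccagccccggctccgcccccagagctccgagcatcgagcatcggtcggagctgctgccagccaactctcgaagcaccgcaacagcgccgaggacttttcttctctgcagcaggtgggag
Myl9 had a value of -1.63. No match in the other windows says only that these letters are absent there.

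A crossing gene was defined as one whose marrow effect was at least 1 in log2 size in both hosts and opposite in sign. There were 334 such genes (2.22%), of which 34 (0.226%) were higher in matched chimeras and 300 (1.99%) higher in mismatched chimeras. The 4 libraries with the most muscle RNA were the 4 highest in 192 of the 300 (64%). The 300 were selected as higher in both mismatched groups, to which these 4 libraries belong. A high share, and smaller values once these libraries are left out, are therefore partly built in. Of the 300, 13 were in the smooth muscle list and 22 in the neuron or glia lists. Leaving out any single library kept mismatched higher in most crossing genes, from 51 higher in matched and 217 higher in mismatched chimeras without WT => St2-/- replicate 2 to 24 and 355 in the same order without WT => WT replicate 2. Without the 4 libraries, 357 crossing genes were higher in matched chimeras and 28 in mismatched chimeras, but these were mostly other genes: 14 of the 357 were among the 34 above and 5 among the 300. Of the 300, 222 were still tested, and 129 of them (58.1%) kept a negative value and 93 did not, with a median of -0.08 against -1.70 in all libraries. Of the 222, 8 remained crossing genes in the same direction and 5 crossed in the other. All 34 that were higher in matched chimeras kept their sign, and 14 remained crossing genes. Counts also differed between sampling times. By group means of log2 CPM, 65 were higher in matched and 549 higher in mismatched chimeras at 13 weeks, against 295 and 32 at 14 weeks. Most group means at 14 weeks were single tumours.

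The genes with the largest crossing effects were barely detected in matched chimeras. Rims1, a scaffold protein of the presynaptic active zone, had 1 read in all 6 matched libraries and 108 reads in the mismatched libraries. Adamtsl3, an ADAMTS-like matrix protein, had 1 and 65 reads, and Prdm6, a regulator of smooth muscle cells, had 1 and 44 reads in the same order, so no fold is given. In each case the 4 libraries with the most muscle RNA held most of the reads. Brinp2, a neuronal gene, was at 0.24 CPM or less in matched tumours and between 0.17 and 4.87 CPM in mismatched tumours.

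**Figure D3:**
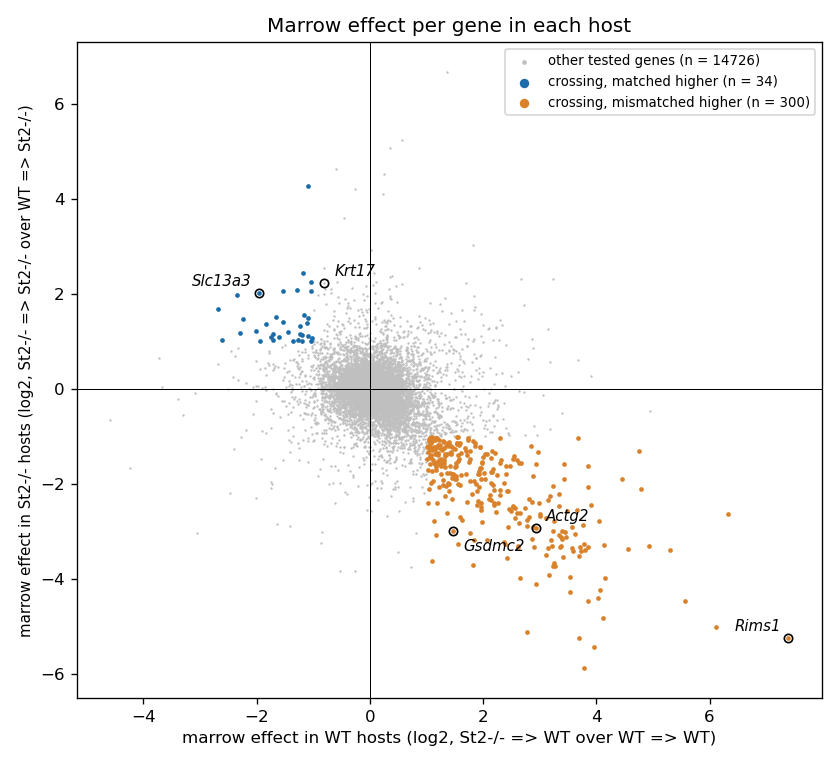
Marrow effect of each tested gene in wild-type hosts (x axis, log2 of St2-/- => WT over WT => WT) and in St2-/- hosts (y axis, log2 of St2-/- => St2-/- over WT => St2-/-). Coloured points are the 34 crossing genes that were higher in matched chimeras, upper left, and the 300 that were higher in mismatched chimeras, lower right.

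Among crossing genes that were higher in matched chimeras, Slc13a3, a sodium-coupled dicarboxylate transporter, had 4.74, 0.63 and 0.70 CPM in St2-/- => St2-/- tumours and 0.94, 1.64 and 1.19 CPM in WT => WT tumours, against 0.26, 0.26 and 0.43 CPM in St2-/- => WT tumours and 0.68, 0.35 and 0.44 CPM in WT => St2-/- tumours. The level was low throughout, and 1 tumour carried the St2-/- => St2-/- mean; without it the value was 1.21, against 1.99 in all libraries. Angpt4, an angiopoietin, ranged from 0.08 to 15.8 CPM in matched and 0.26 to 1.85 CPM in mismatched tumours. Lgals7, a galectin of stratified epithelium, ranged from 0.34 to 11.2 CPM and from 0.26 to 1.39 CPM, and Lzts1 from 0.19 to 0.88 CPM and from 0 to 0.51 CPM in the same order. Without WT => WT replicate 2 the value of Angpt4 was 1.31, against 2.16 in all libraries, and without St2-/- => St2-/- replicate 2 that of Lgals7 was 0.74, against 1.80.

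Further genes with a value of at least 1 in size and low unadjusted p were higher in matched chimeras. Ccl3, a chemokine of activated myeloid cells, had a value of 1.35 (SE 0.38), Cd300a, an inhibitory receptor of leukocytes, 1.02 (SE 0.30), and Treml4, a receptor of myeloid cells, 1.06 (SE 0.28). Habp2, a hyaluronan-binding protease, had 1.82 (SE 0.49), Wnt3, a Wnt ligand, 1.32 (SE 0.39), and B3galt2, a galactosyltransferase, 1.54 (SE 0.46). B3galt2 ranged from 10.0 to 56.6 CPM in matched tumours and from 3.57 to 20.3 CPM in mismatched tumours. Mettl7a2 and Ankrd34c, genes expressed at low levels here, had values of 1.65 (SE 0.49) and 1.36 (SE 0.43). WT => WT replicate 2 had 11.8 CPM of Mettl7a2 and the other 2 WT => WT tumours 1.97 and 2.31 CPM, and without it the value was 1.00. None of these genes was called, and their adjusted p-values were 0.539 to 0.559.

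On the other side, Tshz2, a zinc finger transcription factor, was tight in matched tumours, at 6.95, 8.55 and 7.89 CPM in St2-/- => St2-/- tumours and 7.30, 6.38 and 7.48 CPM in WT => WT tumours. It was at 20.7, 11.1 and 12.6 CPM in St2-/- => WT tumours and 9.99, 24.9 and 21.4 CPM in WT => St2-/- tumours (log2 -1.17, SE 0.24, adjusted p = 0.539), without overlap. Ache, acetylcholinesterase, and Garnl3, a protein with a GTPase-activating domain, did not overlap either, with values of -1.21 (SE 0.26) and -1.19 (SE 0.25). At 14 weeks all 3 kept matched tumours below mismatched tumours, with contrasts of -0.55 for Tshz2, -0.45 for Ache and -0.67 for Garnl3. Adam33, a metalloprotease of smooth muscle and fibroblasts, was at 0.17 to 1.03 CPM in matched tumours. Nap1l5, a nucleosome assembly protein gene, was at 0.08 to 0.64 CPM there, so both were low. Their values were -3.50 (SE 0.78) and -3.25 (SE 0.73). Several of these values were smaller without the 4 libraries with the most muscle RNA, at -0.43 for Adam33, -0.60 for Tshz2 and -0.54 for Ache, while Garnl3 was at -1.06 and Nap1l5 was below the filter. With the smooth muscle score as a covariate Adam33 was at -0.67, Nap1l5 at -0.92, Tshz2 at -0.62, Ache at -0.75 and Garnl3 at -0.97. Across all genes, 17 (0.113%) were higher and 27 (0.179%) lower in all 6 matched than in all 6 mismatched libraries. A random split of the 12 libraries separates a gene in a given direction in 1 of 924 ways. The share of the 17 is near that rate and that of the 27 somewhat above it, so a lack of overlap by itself does not mark a gene. Some of the 17 had small values, such as Tmem33, a membrane protein of the endoplasmic reticulum (log2 0.31, SE 0.07), and Hspa8, a constitutive chaperone (log2 0.41, SE 0.12), both chosen after their values were seen.

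Mast cells carry ST2, and some of their genes were highest in WT => St2-/- tumours. Of 17 tested members, 15 were lower in matched chimeras and 3 had an unadjusted p under 0.05, with a median of -0.83. The median was -0.27 without WT => St2-/- replicate 2, -0.49 without the 4 libraries with the most muscle RNA and -0.24 with the smooth muscle score as a covariate. Tpsab1, a tryptase, had 4.81, 3.24 and 3.40 CPM in St2-/- => St2-/- tumours and 0.86, 0.39 and 2.95 CPM in WT => WT tumours, against 0.69, 0.17 and 2.08 CPM in St2-/- => WT tumours and 63.3, 90.5 and 10.3 CPM in WT => St2-/- tumours (log2 -1.65, SE 0.65, adjusted p = 0.621, and -1.06 without St2-/- => WT replicate 3). The marrow effect was -3.84 (SE 0.90) in St2-/- hosts and -0.53 (SE 0.98) in wild-type hosts, so both effects had the same sign. The host term of Tpsab1 was called (log2 3.60, SE 0.67, adjusted p = 0.0291). Cma1, a chymase, had a value of -1.12 (SE 0.36), and the mucosal proteases Mcpt2 and Mcpt1 had -1.31 (SE 0.56) and -1.23 (SE 0.58). Mcpt1 was at 1189 CPM in WT => St2-/- replicate 2 and between 17.6 and 300 CPM in the other mismatched tumours. Without that library the value of Mcpt1 was -0.52 and that of Mcpt2 -0.69. Kit, the stem cell factor receptor of mast cells and of interstitial cells of Cajal, had a value of -0.16 (SE 0.22). The summed level of the list was 280 to 500 CPM in matched and 174 to 2443 CPM in mismatched chimeras.

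The lists of lymphatic endothelium and of xenobiotic and retinoid metabolism had medians of -0.58 (6 tested, 4 lower) and -0.51 (21 tested, 18 lower). Lyve1, a hyaluronan receptor of lymphatic vessels, had a value of -0.72 (SE 0.29), Mmrn1, a multimerin, -1.95 (SE 0.81), Reln, reelin, -1.17 (SE 0.56), and Pdpn, podoplanin, which fibroblasts also express, 0.53 (SE 0.28). Without the 4 libraries with the most muscle RNA the medians were 0.27 and 0.12, and with the smooth muscle score as a covariate they were 0.20 and -0.54, so that only the lymphatic list changed sign in both. Without St2-/- => WT replicate 2 the xenobiotic and retinoid median was -0.24. Aldh1a1, a retinaldehyde dehydrogenase, had 11.8, 11.2 and 9.35 CPM in St2-/- => St2-/- tumours and 15.1, 15.7 and 13.5 CPM in WT => WT tumours, against 26.5, 33.8 and 14.7 CPM in St2-/- => WT tumours and 19.4, 15.4 and 17.4 CPM in WT => St2-/- tumours (log2 -0.72, SE 0.19, adjusted p = 0.539). WT => WT replicates 1 and 2 overlapped the lowest mismatched tumours. Ces1d, a carboxylesterase, had a value of -1.68 (SE 0.53), Nqo1, a quinone reductase, -0.54 (SE 0.23), and Cyp2s1, a cytochrome P450, -0.87 (SE 0.44). Without the 4 libraries Ces1d was at 0.23, Nqo1 at -0.28, Cyp2s1 at -0.15 and Aldh1a1 at -0.42, and with the covariate they were at -0.17, -0.54, -1.04 and -0.67.

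The remaining lists had smaller medians. All 28 tested cell cycle genes were higher in matched chimeras, with a median of 0.20 and 3 at an unadjusted p under 0.05. The interferon-gamma response list had a median of 0.22, with 29 of 39 higher and 0 at an unadjusted p under 0.05 in either direction, and the type I interferon list 0.02. The list of IL-33 and ST2 signalling had a median of 0.01, with 7 of 13 higher. Inflammatory cytokines and chemokines had a median of 0.34 with 6 of 25 higher at an unadjusted p under 0.05, and complement 0.39 with 5 higher and 1 lower of 15. T cells had a median of 0.31 (15 of 17 higher), B cells of -0.40 (17 of 18 lower) and fibroblasts of 0.00 (12 of 24 higher), with no T or B cell gene at an unadjusted p under 0.05. The contrasts of the lymphocyte scores had opposite signs at the 2 sampling times. Most group means at 14 weeks were single tumours, so sampling time and differences between single tumours cannot be told apart. The B cell contrast was -2.16 at 13 weeks and 2.03 at 14 weeks, and the T cell contrast -0.31 and 1.37, with all matched tumours above both mismatched tumours at 14 weeks. The interferon-gamma contrast was -0.39 and 0.73, and that of the cell cycle genes 0.37 and -0.11. Over all tested genes 51.0% had a negative value.

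**Figure D4:**
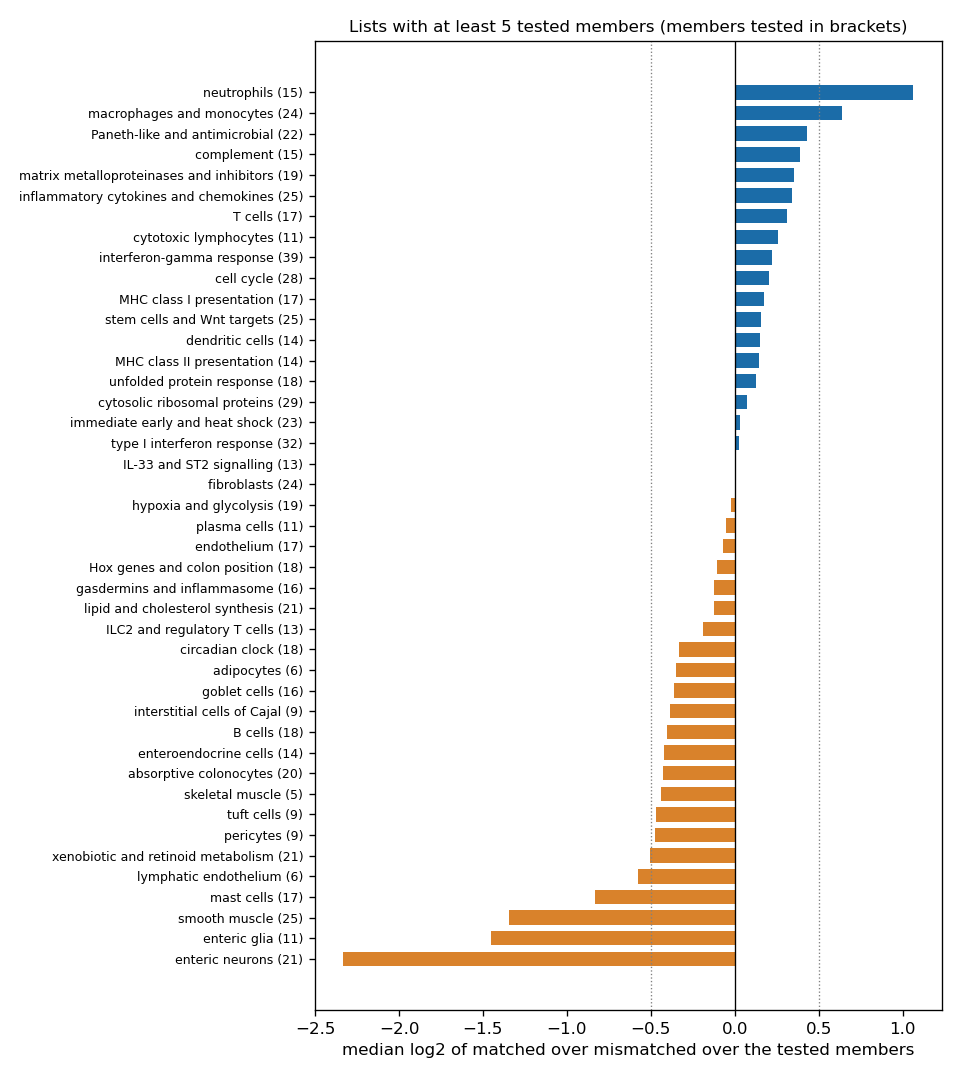
Median log2 of matched over mismatched over the tested members of each list with at least 5 of them; the number tested is in brackets and dotted lines mark a size of 0.5. Bars to the right are lists that were higher in matched chimeras, led by neutrophils (1.06), and bars to the left lists that were lower, led by enteric neurons (-2.33).

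Principal components of the 500 most variable genes gave the overall spread. The first held 31.1% of the variance, and its mean score was -13.0 in matched and 13.0 in mismatched chimeras, with ranges of -31.0 to 4.29 and -14.7 to 31.9 that overlapped (exact permutation test over all 924 splits, two-sided p = 0.0281). The 4 mismatched libraries with the most muscle RNA had the 4 highest scores. The second held 29.3%, with mean scores of 2.33 and -2.33 in the same order (exact permutation test, two-sided p = 0.725). The components held nearly the same variance, and which of them separated the groups changed with 1 library. The difference was -26.0 on the first and 4.65 on the second with all libraries. Without WT => WT replicate 2 it was 0.85 on the first and -24.0 on the second (exact permutation test, p = 0.955 and 0.0476), and without WT => St2-/- replicate 3 it was 3.08 and 25.4 (p = 0.820 and 0.0433). The sign of a component is arbitrary. Here the first was set to rise with the smooth muscle score and the second to be positive on average in wild-type hosts.

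**Figure D5:**
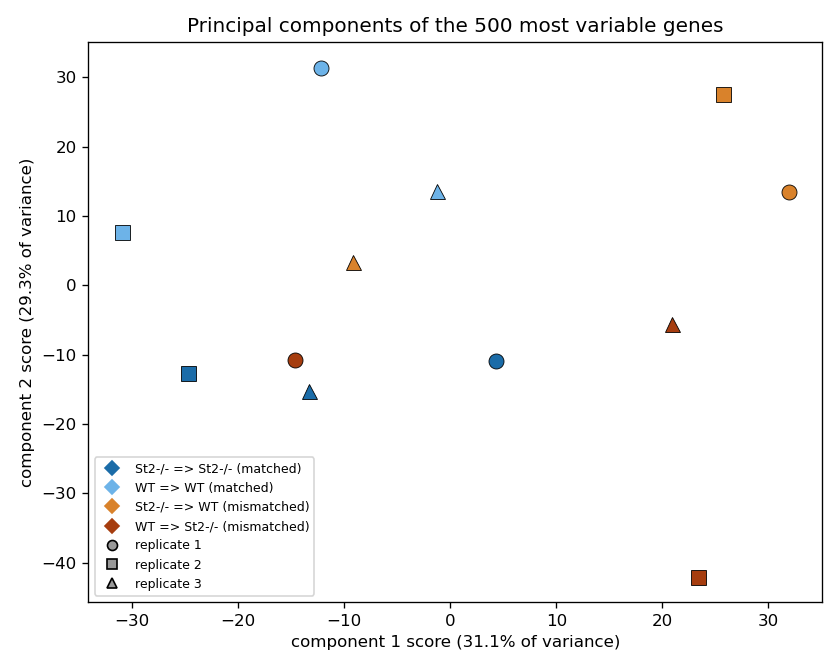
Scores of each library on principal component 1 (x axis) and 2 (y axis); colour gives the group and shape the replicate. Scores on the first component run from -31.0 to 4.29 in matched and from -14.7 to 31.9 in mismatched tumours, with 2 mismatched tumours among the matched ones.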

How the data were processed

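RNA of 12 snap-frozen colon tumours was made into TruSeq libraries and sequenced as single-end reads of 50 bases, per the labels' protocols. The submitters' processing notes name TopHat and Bowtie2 as tools and GRCm38 (mm10) as build; versions, annotation and strand setting are not given in the sources used here, so overlapping antisense genes are less certain. The authors deposited raw read counts per gene for 24062 genes. The 5 summary entries (not unique, ambiguous and the like) took 49.8% to 59.6% of a library's reads and were left out, and no column lacked a sample (0).

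Counts were analysed with edgeR 4.0.16 in R 4.3.3. Genes passed filterByExpr with a minimum count of 10, which left 15060 and removed 9002, and libraries were scaled by TMM. A robust quasi-likelihood model had 1 coefficient per group, fitted on all 12 libraries together. Two-sided tests were used, with Benjamini-Hochberg adjustment over all tested genes and calls at an adjusted p under 0.05. Errors of log2 values are standard errors (SE) of the model. Scores and principal components used log2 CPM with a prior count of 2. Alternatives used DESeq2 1.42.0 and limma 3.58.1. The fit was tested on simulated counts. Unique windows were taken from GENCODE M21 transcripts.

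The comparison, the 46 gene lists and the rules were chosen with earlier results of these data known. Named genes were Il1rl1, Il33, up to 12 genes in each direction with the lowest p among those of at least 1 in log2 size and at least 1 CPM on average (predicted genes, pseudogenes and sex-linked genes left out), up to 4 members of each list with a median of at least 0.5 in size and at least 5 tested members, and up to 4 crossing genes in each direction; 1 gene that the rule named is not reported here. Replicate numbers did not pair the samples, and the interaction was also computed within sampling times as a contrast of group means without a test.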

Additional observations from a re-analysis of the deposited data

Results flagged for a closer look

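Single libraries stood apart from the other 5 of their kind in 9 of 138 sets of 6 values by Dixon's ratio. The nominal rate of 1 in 20 would give 6.9, but it holds for independent values of a single group. Each set here pooled 2 groups and many of the genes vary together, so the counts cannot be compared. WT => WT replicate 2 stood apart for 5 genes among the matched tumours. It was high for C1qa (285 CPM against 98.9 to 138 CPM), C1qb (192 against 56.8 to 89.4 CPM), Ms4a7 (37.0 against 9.86 to 15.9 CPM) and Treml4 (4.73 against 2.37 to 2.95 CPM), and low for Wnt3 (0.58 against 1.66 to 2.86 CPM). Its macrophage score of 5.23 was also the highest of all 12 libraries. Among mismatched tumours, Ccl3 was low in WT => St2-/- replicate 3 (0.176 against 0.94 to 2.07 CPM). Rims1, Adamtsl3 and Prdm6 were each at 0.0764 CPM in St2-/- => St2-/- replicate 1, which is 1 read, and at 0 in the other 5 matched tumours.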

How the results depend on the processing

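The interaction had 0 calls under every edgeR alternative, with each library left out in turn and without the 4 libraries of highest smooth muscle score. The DESeq2 Wald test called 93 genes and limma-voom 4. The lowest edgeR adjusted p ranged from 0.0638 to 0.722 over these edgeR alternatives. With the replicate block it was 0.722, with 0 interaction calls and 152 host calls; same-numbered libraries of different groups had a median correlation of deviations of -0.08 (5 of 18 over 0.1), so the numbers were not taken as a paired design. The marrow term had 0 calls in every setting. The marrow effect in St2-/- hosts had 14 calls with DESeq2, 4 with limma-voom, 1 without the 4 libraries and 0 to 1 with a library left out (1 without WT => WT replicate 2, Gsdmc2). The 206 host calls became 1196 with DESeq2, 1858 with limma-voom, 107 with the leukocyte score, 4 without the 4 libraries and 80 to 484 with a library left out. Genes without overlap numbered 55 to 163 with a library left out and 752 without the 4 libraries, against 44, as fewer libraries have to separate. Crossing genes numbered 169 at a size of 1.5.

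Of 1392 values for 61 named genes, 20 changed sign, in 5 genes. With limma-voom, Il1rl1 was 0.64 and Il33 0.10; with the smooth muscle score, Il1rl1 was 0.26, Il33 0.27, Mmrn1 0.26 and Reln 0.39. By the ratio of mean CPM Il1rl1 was 0.31, and with the replicate block Il33 was 0.0084. Without the 4 libraries Il33 was 0.0493, Mmrn1 0.64, Reln 1.00 and Ces1d 0.23. With a library left out, Il1rl1 lay between -0.40 and 0.27 and Il33 between -0.46 and 0.43. The component 1 difference was -20.9 without the filter (p = 0.0866, exact permutation test) and -28.7 to 3.08 with a library left out; that on component 2 was -24.0 to 25.4. The cause was not tested.

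With 3 tumours a group and a common biological coefficient of variation of 0.32, a difference short of a call is not shown to be absent. The tumours also differed in RNA of muscle genes, and the muscle content of the pieces was not measured. Depth limits genes near 1 CPM, where a matched group can hold a single read.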
